A study of Mus musculus with 6 samples.

Results

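The acyl-CoA thioesterases (Acot genes) and the Acnat acyltransferases were followed in mouse liver with and without ascorbic acid (AA, vitamin C). The 9 genes, chosen by name with the measured Acnat2 difference in view, were Acnat1, Acnat2, Acot2, Acot3, Acot4, Acot7, Acot8, Acot12 and Acot13, each read from the probe set annotated to that gene alone. All 9 had exactly 1 such probe set, out of 19550 genes with a value, and all 9 passed the filter on dim genes (a mean over the 6 arrays at or above the 25th percentile, 0.185). The family was selected on the low Acnat2 values of AA-deficient knockouts, so Acnat2 in both comparisons of that group is given below as a description with no test. The study measured liver RNA of male mice on 6 arrays, 2 in each of 3 groups. The first group lacked SMP30/GNL (regucalcin, gene Rgn, a gluconolactonase of the AA synthesis pathway in mice) and was AA-deficient. The next had the same knockout and received AA with EDTA in its drinking water, at a concentration said to keep tissue AA normal (AA-supplemented). The last were wild type on a diet and water without vitamin C. AA-deficient knockouts set against wild type combine loss of the gene and loss of AA, which cannot be told apart in that comparison. All 3 groups ate the AA-deficient chow CL-2 and had the C57BL/6NCrSlc background. The sources used here do not give age, time on the diet, the deleted part of Rgn, or whether mice without AA received EDTA.

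Fatty acids are metabolised as thioesters of coenzyme A (CoA). Acyl-CoA synthetases make these thioesters, and acyl-CoA thioesterases cut them back to a free acid and CoA in the cytosol, mitochondria and peroxisomes. The Acnat genes encode peroxisomal relatives of Baat, the liver enzyme that joins bile acids to taurine or glycine, and ACNAT1 of mouse is known to join fatty acids to taurine. Several Acot genes, Acot1 to Acot4 among them, are known targets of PPAR alpha, the fatty acid sensing nuclear receptor of hepatocytes.

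Rgn had values of 0.23 and 0.30 in AA-deficient knockouts, 0.34 and 0.14 in AA-supplemented knockouts, and 2.07 and 1.996 in wild type, so it was low on all 4 knockout arrays. Across all probe sets, arrays of 1 group correlated at 0.965 to 0.975 and arrays of different groups at 0.945 to 0.974. Of the 6 arrays AA-supplemented array 2 had the highest median value, 0.392. Between both arrays of a group, gene values differed with an SD of 0.079 for AA-deficient knockouts, 0.104 for AA-supplemented knockouts and 0.079 for wild type. The 9 hepatocyte markers with a value had a median percentile of 99.7 among all genes, and 0 of them passed in any comparison. The labels do not say whether both arrays of a group hold RNA of different mice, so p-values rest on a spread between samples that may be technical. Values are in the deposited log units (group means ± SD, n = 2; differences with SE), and folds hold if these are log10, as their span implies.

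Among protein-coding genes in the RefSeq order of mouse, Acnat2, Acnat1 and Baat follow each other, and so do Acot2, Acot1, Acot4, Acot3 and Acot5. The sequences just upstream of 5 annotated starts are shown because the results turn on these neighbours, which are described side by side below. They come from RefSeq (GRCm38.p6), run 5′ to 3′ toward the start, and capitals mark a match, on either strand and with up to 2 mismatches, to AGGTCA, any base, and AGGTCA again, the direct repeat that PPAR alpha with its RXR partner can bind.
Acnat2, chr4:49408152-49408401, minus strand: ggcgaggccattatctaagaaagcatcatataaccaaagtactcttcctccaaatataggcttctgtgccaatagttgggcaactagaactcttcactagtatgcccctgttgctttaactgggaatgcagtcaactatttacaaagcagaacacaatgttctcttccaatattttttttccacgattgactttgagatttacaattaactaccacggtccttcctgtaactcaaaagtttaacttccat
Acnat1, chr4:49451110-49451359, minus strand: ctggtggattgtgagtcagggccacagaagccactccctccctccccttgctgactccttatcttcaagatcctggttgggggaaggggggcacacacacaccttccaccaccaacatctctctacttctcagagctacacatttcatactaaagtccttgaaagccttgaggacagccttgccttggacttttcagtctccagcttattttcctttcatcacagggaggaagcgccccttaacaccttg
Acot2, chr12:83987611-83987860, plus strand: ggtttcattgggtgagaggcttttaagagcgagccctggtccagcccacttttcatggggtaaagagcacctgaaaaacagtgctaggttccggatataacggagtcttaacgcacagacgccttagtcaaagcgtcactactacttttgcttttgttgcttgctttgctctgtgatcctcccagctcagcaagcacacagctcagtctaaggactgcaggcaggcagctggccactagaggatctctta
Acot4, chr12:84038129-84038378, plus strand: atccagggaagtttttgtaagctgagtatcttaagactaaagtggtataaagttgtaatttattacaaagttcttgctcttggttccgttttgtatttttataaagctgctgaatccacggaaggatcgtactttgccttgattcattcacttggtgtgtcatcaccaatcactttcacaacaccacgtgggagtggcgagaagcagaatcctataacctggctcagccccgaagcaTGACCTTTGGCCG
Acot3, chr12:84051894-84052143, plus strand: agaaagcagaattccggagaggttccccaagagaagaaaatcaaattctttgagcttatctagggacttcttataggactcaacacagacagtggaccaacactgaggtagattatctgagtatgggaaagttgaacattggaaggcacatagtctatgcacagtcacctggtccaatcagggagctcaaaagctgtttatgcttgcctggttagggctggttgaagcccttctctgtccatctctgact
Of these 5 stretches, that of Acot4 held the repeat, as TGACCTTTGGCCG on the opposite strand with 2 mismatches. Counting the whole windows, which also hold a short stretch past the start, 2 of the 8 member genes with a window held it, Acot4 and Acot12, and 1268 of 32851 RefSeq windows did (3.86%). Exact AGGTCA on either strand, which overlaps these repeats, was in windows of 3 member genes, Acot3 (past its start), Acot4 and Acot12, and in 16.3% of all windows. Neither motif was found in the windows of Acnat1, Acnat2 (either of its 2 starts), Acot2, Acot7 or Acot8. These matches describe letters and no binding was measured.

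Acnat2, annotated as a peroxisomal acyltransferase by its likeness to Acnat1, had the widest range over the 6 arrays of the 9 members. It had values of 0.41 and 0.35 in AA-deficient knockouts, 0.69 and 0.83 in AA-supplemented knockouts, and 0.96 and 0.97 in wild type. The 3 groups did not overlap, and the supplemented arrays lay between the other two groups. AA-deficient knockouts averaged 0.38 ± 0.040, AA-supplemented knockouts 0.76 ± 0.099 and wild type 0.97 ± 0.0048 (SD, n = 2 each). The difference of AA-deficient knockouts was -0.38 (SE 0.054) from AA-supplemented knockouts, 2.40-fold lower, and -0.58 (SE 0.054) from wild type, 3.84-fold lower. With 1 array left out at a time these differences ran from -0.45 to -0.31 and from -0.61 to -0.56. AA-supplemented knockouts differed from wild type by -0.20 (SE 0.054, 95% confidence interval -0.33 to -0.078, 1.60-fold lower). This did not pass (adjusted p = 0.269 in limma), and it shares its wild-type arrays with the values that chose the gene. Leaving out the second AA-supplemented array gave -0.27, and leaving out the first gave -0.13. In a bulk sample, fewer cells of a type and less RNA per cell cannot be told apart.

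Acnat1, the taurine-conjugating neighbour, showed no such order of groups. It had values of 1.88 and 1.81 in AA-deficient knockouts, 1.86 and 1.90 in AA-supplemented knockouts, and 1.93 and 1.81 in wild type, and all 3 groups overlapped. Its difference was -0.035 (SE 0.052, 95% confidence interval -0.15 to 0.085) between AA-deficient and AA-supplemented knockouts and -0.024 (SE 0.052, interval -0.14 to 0.096) between AA-deficient knockouts and wild type. The gap between Acnat1 and Acnat2 was not tested, and whether probes of one also bind the other was not examined. Baat, the next gene along, had values of 1.22 and 1.23 in AA-deficient knockouts, 1.35 and 1.33 in AA-supplemented knockouts, and 1.38 and 1.39 in wild type. The Baat groups lay in the same order as those of Acnat2 with no overlap, over a smaller span. In limma Baat did not pass in AA-deficient knockouts against AA-supplemented knockouts (difference -0.12, SE 0.039, adjusted p = 0.346) or against wild type (difference -0.16, SE 0.039, 1.45-fold lower, adjusted p = 0.0595). Against wild type it passed under several other settings, among them quantile normalisation (adjusted p = 0.0426) and eBayes with a trend (adjusted p = 0.0109). Baat did not pass there with no filter on dim genes (adjusted p = 0.118) or median centring (adjusted p = 0.0801). Nor did it with the mean of all probe sets (adjusted p = 0.0591) or a replicate block (adjusted p = 0.133).

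**Figure D1:**
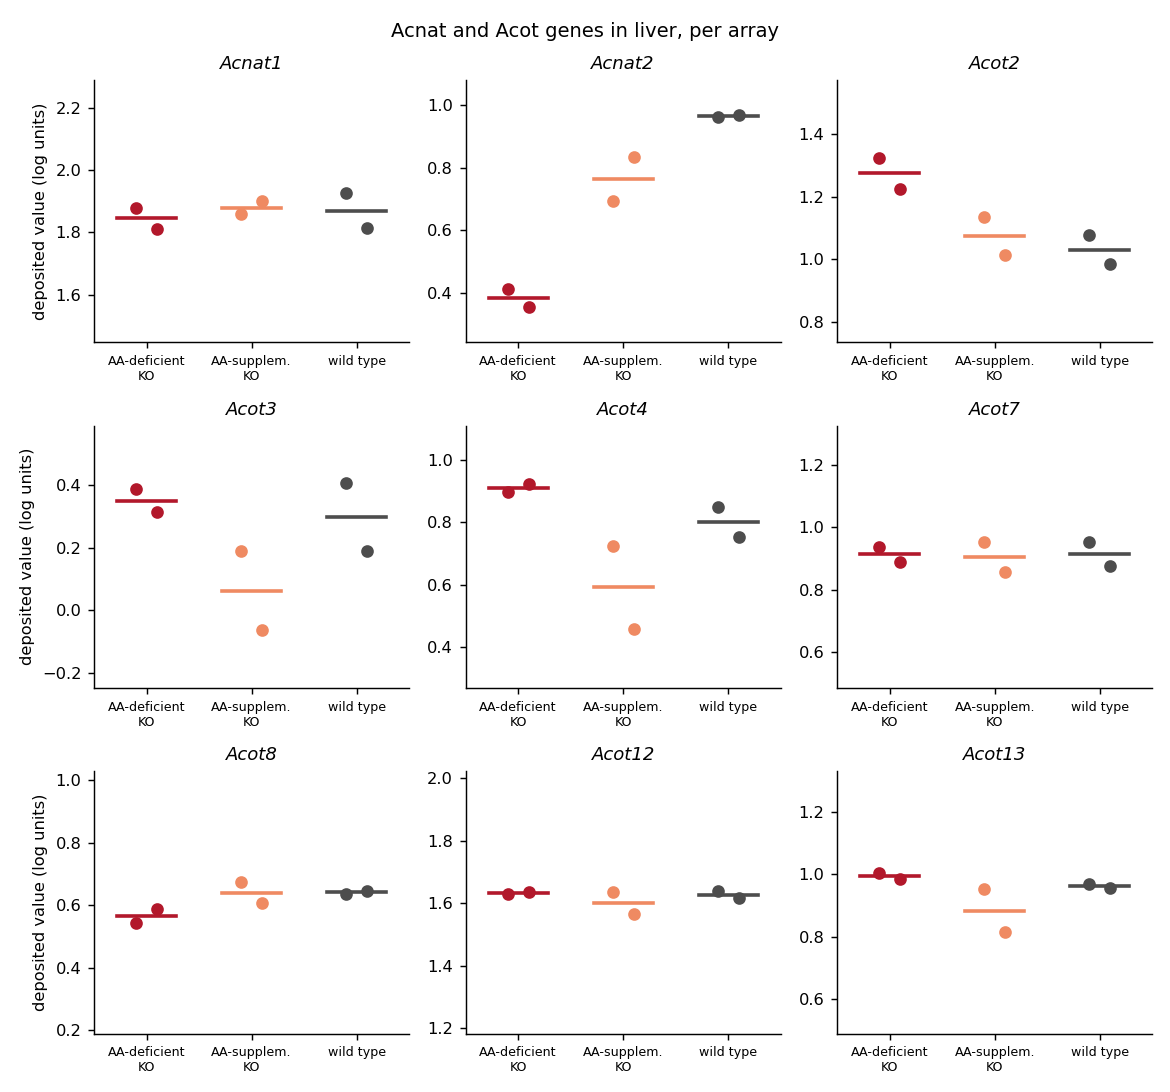
Values of the 9 genes on each of the 6 arrays (points) with the group mean (line). The x axis gives the 3 groups and the y axis the deposited value in log units, with the same span in each panel. The Acnat2 means are 0.38, 0.76 and 0.97 from left to right, and AA-supplemented array 2 is the lowest array for 5 genes.

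Acot2, the mitochondrial long-chain acyl-CoA thioesterase, was highest in AA-deficient knockouts. It had values of 1.33 and 1.22 in AA-deficient knockouts, 1.14 and 1.01 in AA-supplemented knockouts, and 1.08 and 0.98 in wild type. Both AA-deficient arrays stood above the other 4, which overlapped. Against wild type the difference was 0.24 (SE 0.060, 95% confidence interval 0.11 to 0.38, 1.76-fold) and missed the threshold in limma (adjusted p = 0.0614). It passed with eBayes with a trend (adjusted p = 0.0161) and with a trend and robust fit (adjusted p = 0.0133). It also passed with a filter at the 50th percentile (adjusted p = 0.0367) and with only the 4 arrays compared (adjusted p = 0.0423). The latter is the same fit as without either AA-supplemented array. Acot2 did not pass with no filter on dim genes, the normalisations, the mean of all probe sets or a replicate block. Over the changes of processing its adjusted p in limma reached 0.119. With 1 array left out at a time the difference from wild type ran from 0.19 to 0.29. Against AA-supplemented knockouts the difference was 0.20 (SE 0.060, interval 0.061 to 0.34, 1.59-fold, adjusted p = 0.288). AA-supplemented knockouts differed from wild type by 0.044 (SE 0.060, interval -0.095 to 0.18, adjusted p = 0.848).

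Acot4 and Acot3, peroxisomal thioesterases encoded side by side, were lowest in AA-supplemented knockouts. Acot4, which is known to act on succinyl-CoA, had values of 0.90 and 0.92 in AA-deficient knockouts, 0.73 and 0.46 in AA-supplemented knockouts, and 0.85 and 0.75 in wild type. Acot3, known for long-chain acyl-CoA, had values of 0.39 and 0.31 in AA-deficient knockouts, 0.19 and -0.063 in AA-supplemented knockouts, and 0.41 and 0.19 in wild type. For Acot4 the groups did not overlap, and for Acot3 the AA-deficient arrays lay within the range of wild type. Acot3 averaged 0.24 over the 6 arrays, close above the filter, and no background level was available to say whether it was detected. The difference of AA-deficient from AA-supplemented knockouts was 0.32 for Acot4 (SE 0.082, 95% confidence interval 0.13 to 0.51, 2.08-fold, adjusted p = 0.222 in limma). For Acot3 it was 0.29 (SE 0.094, interval 0.071 to 0.51, 1.94-fold, adjusted p = 0.335). Neither passed.

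AA-supplemented array 2 was the array on which these differences leaned most. Without it the differences of AA-deficient from AA-supplemented knockouts were 0.14 for Acot2, 0.18 for Acot4 and 0.16 for Acot3. Without AA-supplemented array 1 they were 0.26, 0.45 and 0.41, and Acot4 then passed (adjusted p = 0.0387 in limma, over a range of 0.0387 to 0.636 with 1 array left out, with the lone supplemented array assumed to vary like the others). AA-supplemented array 2 was the lowest of the 6 for 5 of the 9 members (Acot3, Acot4, Acot7, Acot12 and Acot13) and for 20.3% of all genes tested. That array was also the highest of the 6 for 22.1% of all genes tested and for 0 members. Of 9 sinusoidal endothelial markers, 0 passed between the knockout groups in limma, with a median difference of 0.086. They summed to 151 to 158 linear units in AA-deficient knockouts, 139 to 141 in AA-supplemented knockouts and 147 to 154 in wild type. Against wild type 1 of them passed in AA-deficient knockouts, Stab2, a scavenger receptor (difference 0.24, SE 0.045, adjusted p = 0.032). Over all genes 3.08% were called higher in that comparison, and the marker sums of its groups overlapped. The part of endothelial cells in the Acot values was not tested. Hepatocyte markers summed to 1160 to 1190 in AA-deficient knockouts, 1053 to 1482 in AA-supplemented knockouts and 993 to 1159 in wild type.

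**Figure D2:**
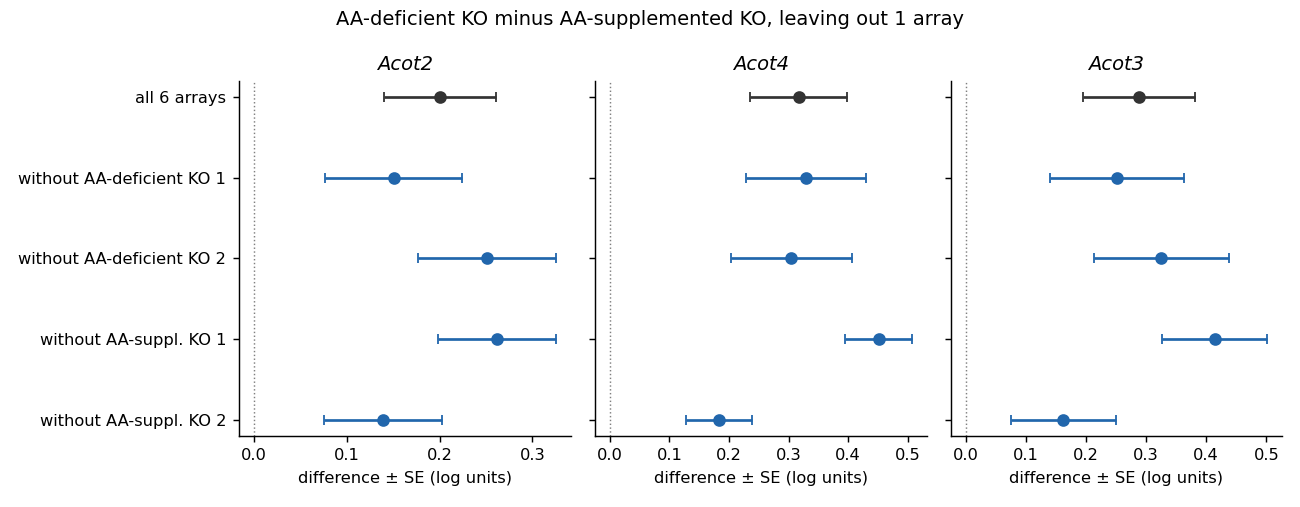
Difference between AA-deficient and AA-supplemented knockouts for Acot2, Acot4 and Acot3 (x axis, deposited log units) with all 6 arrays and with 1 array of these groups left out (y axis). Points are fitted differences and bars the SE. All stay above 0, as they must where the groups do not overlap, and those of Acot4 run from 0.18 to 0.45.

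Against wild type, Acot4 in AA-deficient knockouts differed by 0.11 (SE 0.082, 95% confidence interval -0.081 to 0.30, adjusted p = 0.523 in limma) and Acot3 by 0.053 (SE 0.094, interval -0.16 to 0.27, adjusted p = 0.815). In AA-supplemented knockouts Acot4 differed from wild type by -0.21 (SE 0.082, interval -0.40 to -0.021, adjusted p = 0.425) and Acot3 by -0.24 (SE 0.094, interval -0.45 to -0.018, adjusted p = 0.434). Without AA-supplemented array 2 the last differences were -0.076 and -0.11. Acot1, the cytosolic thioesterase encoded between Acot2 and Acot4, had values of 0.62 and 0.57 in AA-deficient knockouts, 0.53 and 0.40 in AA-supplemented knockouts, and 0.59 and 0.33 in wild type. Its AA-deficient arrays stood above the supplemented ones and overlapped wild type, and the difference between knockout groups was 0.13 (SE 0.082, adjusted p = 0.691). The genes of this cluster are close relatives, and whether a probe set binds RNA of more than 1 of them was not examined.

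The other 4 Acot members varied less over the arrays, with SDs of 0.027 to 0.067 against 0.13 to 0.17 for Acot2, Acot4 and Acot3. Acot13, a thioesterase of mitochondria and cytosol, had values of 1.004 and 0.985 in AA-deficient knockouts, 0.95 and 0.82 in AA-supplemented knockouts, and 0.97 and 0.96 in wild type. Its AA-deficient arrays were the highest, and its difference from AA-supplemented knockouts was 0.11 (SE 0.052, 95% confidence interval -0.0095 to 0.23, adjusted p = 0.548 in limma), or 0.042 without AA-supplemented array 2. Acot8, a peroxisomal thioesterase of broad range, had values of 0.54 and 0.59 in AA-deficient knockouts, 0.67 and 0.61 in AA-supplemented knockouts, and 0.64 and 0.64 in wild type. It was the only Acot member whose AA-deficient arrays were below both other groups, by -0.074 from AA-supplemented knockouts (SE 0.043, interval -0.17 to 0.026, adjusted p = 0.673) and by -0.075 from wild type (SE 0.043, interval -0.18 to 0.026, adjusted p = 0.391). AA-supplemented knockouts differed from wild type by -0.078 for Acot13 (SE 0.052, adjusted p = 0.649), which was -0.15 once the first AA-supplemented array was left out and -0.0099 once the second was, and -0.00078 for Acot8 (SE 0.043, adjusted p = 0.997).

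Acot7, a cytosolic long-chain thioesterase best known from brain, had values of 0.94 and 0.89 in AA-deficient knockouts, 0.95 and 0.86 in AA-supplemented knockouts, and 0.95 and 0.87 in wild type. Acot12, the cytosolic acetyl-CoA hydrolase of liver, had values of 1.63 and 1.64 in AA-deficient knockouts, 1.64 and 1.57 in AA-supplemented knockouts, and 1.64 and 1.62 in wild type. For both genes the 3 groups overlapped. Between AA-deficient knockouts and wild type the difference was 0.00015 for Acot7 (SE 0.051, 95% confidence interval -0.12 to 0.12) and 0.0050 for Acot12 (SE 0.043, interval -0.094 to 0.10). Over the 3 comparisons their differences lay between -0.026 and 0.031. Changes within these intervals could not be told from none with 6 arrays.

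**Figure D3:**
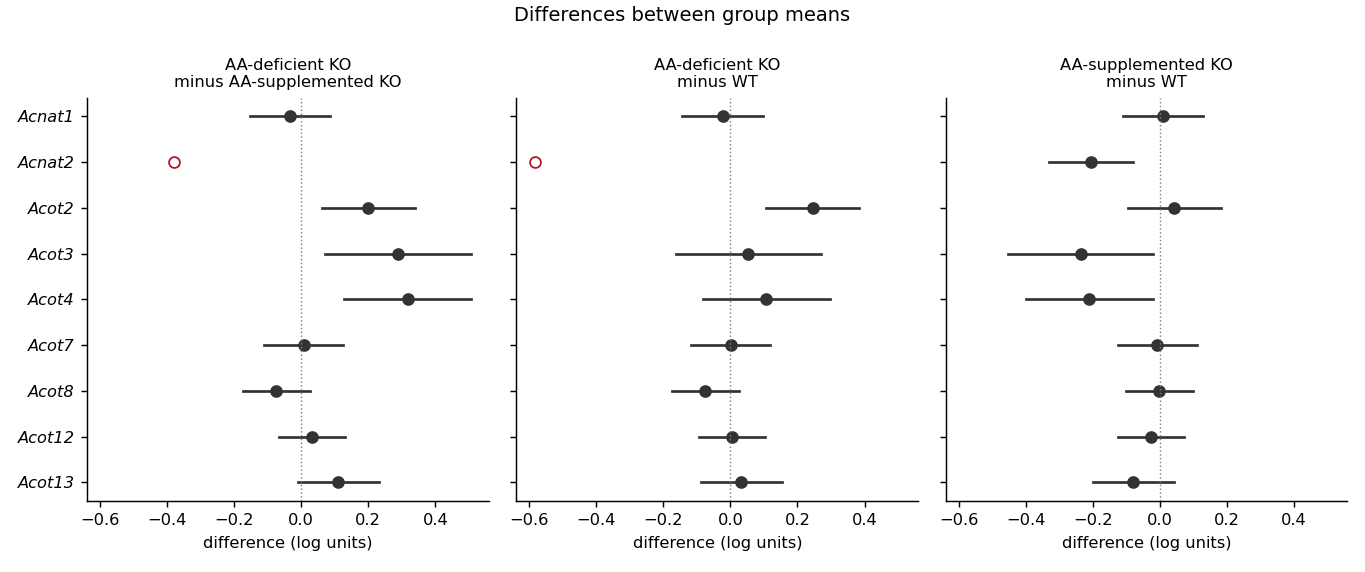
Differences between group means for the 9 genes (rows) in the 3 comparisons (panels), in deposited log units. Filled points carry the 95% confidence interval of the fit, and the open Acnat2 points are described without one because they chose the family. In the first panel Acot2, Acot3 and Acot4 lie at 0.20, 0.29 and 0.32.

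Counted over the members without Acnat2, 0 of 8 passed in limma between AA-deficient and AA-supplemented knockouts, where 0.205% of the 14662 genes tested passed. At an unadjusted p under 0.05, 3 of the 8 were higher and 0 lower (9.92% of all genes in either direction), and 0 passed with eBayes with a trend. Groups did not overlap for 4 higher and 1 lower of the 8, against 37.3% of all genes (19.8% higher and 17.5% lower). Their median difference was 0.071, and that of all genes 3.14e-05. Against wild type 0 of 8 passed in AA-deficient knockouts (4.63% of all genes), 1 was higher at an unadjusted p under 0.05 (20.4% of all genes in either direction), and 1, Acot2, passed with a trend. There 3 were higher and 1 lower without overlap, against 54.5% of all genes (27.6% higher and 26.9% lower), and the median difference was 0.019, against -0.0034 over all genes. Both of these comparisons chose the family through Acnat2, so nothing is read from these counts. Between AA-supplemented knockouts and wild type 0 of all 9 members passed (0.00682% of all genes), 3 were lower at an unadjusted p under 0.05 (10.6% of all genes in either direction) and 0 passed with a trend. There 0 were higher and 4 lower without overlap (Acnat2, Acot3, Acot4 and Acot13), against 38.6% of all genes (19.8% higher and 18.8% lower), and the median difference was -0.026, against -0.0017 over all genes. Acnat2 is among the 3 and among the 4, and these arrays were the references when it chose the family. Nothing is read from these counts either. The comparisons share arrays in pairs and are not independent of each other.

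Of 9 further thioesterase genes with a value, 6 were bright enough to be tested, and 0 passed in limma in any comparison or under any alternative run. At an unadjusted p under 0.05 there was 1 lower between the knockout groups and 1 higher in each comparison with wild type. Over all genes 9.92% were called so between the knockout groups, in either direction. Against wild type 20.4% were in AA-deficient and 10.6% in AA-supplemented knockouts. Acot11, a thioesterase of brown fat and other tissues, had values of 0.60 and 0.61 in AA-deficient knockouts, 0.68 and 0.62 in AA-supplemented knockouts, and 0.35 and 0.53 in wild type. Both knockout groups lay above wild type, by 0.16 in AA-deficient knockouts (SE 0.062, adjusted p = 0.188 in limma) and 0.21 in AA-supplemented knockouts (SE 0.062, adjusted p = 0.324). These differences were 0.072 and 0.12 without wild-type array 1, and 0.25 and 0.30 without wild-type array 2. Acot9, a mitochondrial thioesterase, had values of 0.089 and 0.17 in AA-deficient knockouts, 0.32 and 0.25 in AA-supplemented knockouts, and 0.30 and 0.18 in wild type. Its AA-deficient arrays were lowest (difference -0.15 from AA-supplemented knockouts, SE 0.055, adjusted p = 0.384). Both lay under the filter value of 0.185, and Acot9 averaged 0.22 over the 6 arrays, so it was tested through its higher groups. No background level was available to say whether it was detected. Acot6, Them4 and Them6 had differences between -0.10 and 0.091 in the 3 comparisons, and Acot5, Acot10 and Them5 fell under the filter.

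Acyl-CoA synthetases, which make the thioesters that Acot enzymes cut, had 3 of 15 tested genes higher and 1 lower when AA-deficient knockouts were set against wild type, with a median difference of 0.090. Over all genes 3.08% were called higher and 1.55% lower there. This list, that of further thioesterases above and those below were written with earlier results of these data known. Nothing is read from their counts beside the shares of all genes. At an unadjusted p under 0.05, 7 of the 15 were higher and 2 lower (20.4% of all genes in either direction). The count of 4 calls was 0 with no filter on dim genes, 7 with a trend and 8 with a trend and robust fit. Acsm5, a medium-chain synthetase, averaged 1.59 in AA-deficient knockouts and 1.35 in wild type (difference 0.24, SE 0.040, 1.73-fold, adjusted p = 0.0241 in limma). Acss3, a mitochondrial short-chain synthetase, rose by 0.41 (SE 0.092, 2.55-fold, adjusted p = 0.0495) and Acsf2 by 0.18 (SE 0.040, 1.51-fold, adjusted p = 0.0486). Acss3 did not pass with quantile normalisation (adjusted p = 0.0668) or cyclic loess (adjusted p = 0.0534), nor Acsf2 with median centring (adjusted p = 0.0826). Acsl4, the arachidonate-preferring synthetase, averaged 1.15 in AA-deficient knockouts and 1.44 in wild type and fell by 0.29 (SE 0.052, adjusted p = 0.0289). Between the knockout groups 0 of 15 passed in limma (median 0.070), while 4 were higher and 1 lower at an unadjusted p under 0.05, as were 9.92% of all genes in either direction. Acsl4 had the smallest p there (difference -0.21, SE 0.052, adjusted p = 0.215) and passed with a trend and robust fit (adjusted p = 0.039). Between AA-supplemented knockouts and wild type 0 of 15 passed and 4 were higher at an unadjusted p under 0.05, against 10.6% of all genes in either direction. Acss3 led these (difference 0.25, SE 0.092, adjusted p = 0.406), at 0.098 once the first AA-supplemented array was left out and at 0.40 once the second was.

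Of 16 genes of peroxisomal beta-oxidation, 1 rose in AA-deficient knockouts against wild type, Ehhadh, the bifunctional enzyme (difference 0.24, SE 0.047, adjusted p = 0.0331 in limma). Over all genes 3.08% were called higher. The median of the list was 0.061, 6 were higher and 1 lower at an unadjusted p under 0.05 (20.4% of all genes), and the count of calls was 0 with no filter and 4 with a trend. Between the knockout groups 0 passed in limma (median 0.055) and 2 were higher at an unadjusted p under 0.05 (9.92% of all genes in either direction). The thiolase gene Acaa1b led these at 0.17 (SE 0.051, adjusted p = 0.281). Between AA-supplemented knockouts and wild type 0 passed, with 1 higher and 1 lower at an unadjusted p under 0.05 (10.6% of all genes in either direction). The transporter gene Abcd2 led these at -0.16 (SE 0.049, adjusted p = 0.344). It averaged 0.17 in AA-supplemented knockouts, under the filter value of 0.185, and 0.32 in wild type. A list for PPAR alpha, its partners and the related receptor gene Pparg had 9 tested genes. Of these, 2 rose against wild type in AA-deficient knockouts, where 3.08% of all genes did. These were Pparg, the adipogenic receptor (difference 0.47, SE 0.043, 2.92-fold, adjusted p = 0.00478), and the coactivator gene Ppargc1b (difference 0.23, SE 0.042, adjusted p = 0.0302). Of the 9, 0 passed in either other comparison. At an unadjusted p under 0.05, 1 was higher and 1 lower between the knockout groups (9.92% of all genes in either direction). In AA-supplemented knockouts against wild type 2 were higher (10.6% of all genes in either direction). Pparg did not pass between the knockout groups (difference 0.24, SE 0.043, adjusted p = 0.104) or in AA-supplemented knockouts against wild type (difference 0.22, SE 0.043, adjusted p = 0.190), and passed in both with a trend (adjusted p = 0.0204 and 0.0399).

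In a list of 18 PPAR alpha targets outside the Acot family, 0 rose and 1 fell in AA-deficient knockouts against wild type (median 0.010). Over all genes 3.08% rose and 1.55% fell there, so 1 call in 18 is near the share in either direction, 4.63%. The list does not hold all targets of the receptor. Ehhadh, which rose, Acaa1b and Vnn1 were counted in other lists. The 1 that fell was Cidec, a lipid droplet protein (difference -0.47, SE 0.046, adjusted p = 0.0052 in limma). Cidec was also at -0.29 between the knockout groups (SE 0.046, adjusted p = 0.0753) and at -0.18 in AA-supplemented knockouts against wild type (SE 0.046, adjusted p = 0.248), where 0 of 18 passed and 1 was lower at an unadjusted p under 0.05. Between the knockout groups 0 of 18 passed in limma and 2 were lower at an unadjusted p under 0.05, and with a trend Cidec passed there too (adjusted p = 0.0392). Adipocyte markers, 5 of 5 with a value, summed to 9.91 to 10.9 linear units in AA-deficient knockouts, 9.75 to 13.8 in AA-supplemented knockouts and 11.1 to 11.9 in wild type, and their part in the Pparg and Cidec values was not tested. In CoA synthesis and hydrolysis 0 of 11 passed in limma in the 3 comparisons, and at an unadjusted p under 0.05 there were 0 between the knockout groups and 1 higher in each comparison with wild type. Vnn1, the pantetheinase, was at 0.25 in AA-deficient knockouts (SE 0.067, adjusted p = 0.0775) and 0.22 in AA-supplemented knockouts (SE 0.067, adjusted p = 0.344), each against wild type, and Nudt19, a CoA hydrolase, at 0.086 between the knockout groups (SE 0.048, adjusted p = 0.644). In amino acid conjugation 0 of 6 passed, and at an unadjusted p under 0.05 there were 2 lower between the knockout groups, 1 higher and 2 lower in AA-deficient knockouts against wild type, and 1 higher in AA-supplemented knockouts against wild type. At that threshold 9.92%, 20.4% and 10.6% of all genes were called in these 3 comparisons, in either direction. These shares also apply to the counts of PPAR alpha targets and CoA genes above. Besides Baat, Pm20d1, which joins fatty acids and amino acids, was at 0.17 in AA-deficient knockouts (SE 0.041, adjusted p = 0.0579) and 0.11 in AA-supplemented knockouts (SE 0.041, adjusted p = 0.393), each against wild type. Of the 8 calls named in these lists, each was lost without wild-type array 1 and without wild-type array 2. So were nearly all calls over all genes in that comparison, so this loss is not particular to the 8. The calls of Acsm5, Acsl4, Acsf2, Acss3, Ehhadh and Ppargc1b were also lost without either AA-deficient array (adjusted p from 0.0883 to 0.264) and with no filter on dim genes (adjusted p from 0.0593 to 0.1). With 1 array left out, differences that did not pass ran from 0.11 to 0.24 for Acaa1b and 0.034 to 0.14 for Nudt19 between the knockout groups, and from 0.14 to 0.29 for Vnn1 in AA-supplemented knockouts against wild type.

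Over the 6 arrays, the 5 genes closest to Acnat2 among 615 that passed a filter on variation were Slc10a2, Syt12, Nrg4, Hopx and Ube2s. Pearson coefficients with Acnat2 were 0.996 for Slc10a2, a bile acid transporter, 0.992 for Syt12, a synaptotagmin, and 0.987 for Nrg4, a neuregulin. They were 0.987 for Hopx, a homeodomain protein that does not bind DNA, and 0.987 for Ube2s, a ubiquitin-conjugating enzyme. Slc10a2 had values of 0.50 and 0.42 in AA-deficient knockouts, 0.80 and 0.97 in AA-supplemented knockouts, and 1.20 and 1.21 in wild type. The 5 genes share with Acnat2 the order of groups, lowest in AA-deficient knockouts and highest in wild type. This order largely follows from choosing them by the coefficient, and nothing is read from it. The coefficients rest on 6 arrays that fall into 3 groups. Among the other 8 members the coefficient with Acnat2 was -0.90 for Acot2, the lowest, and 0.68 for Acot8, the highest.

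**Figure D4:**
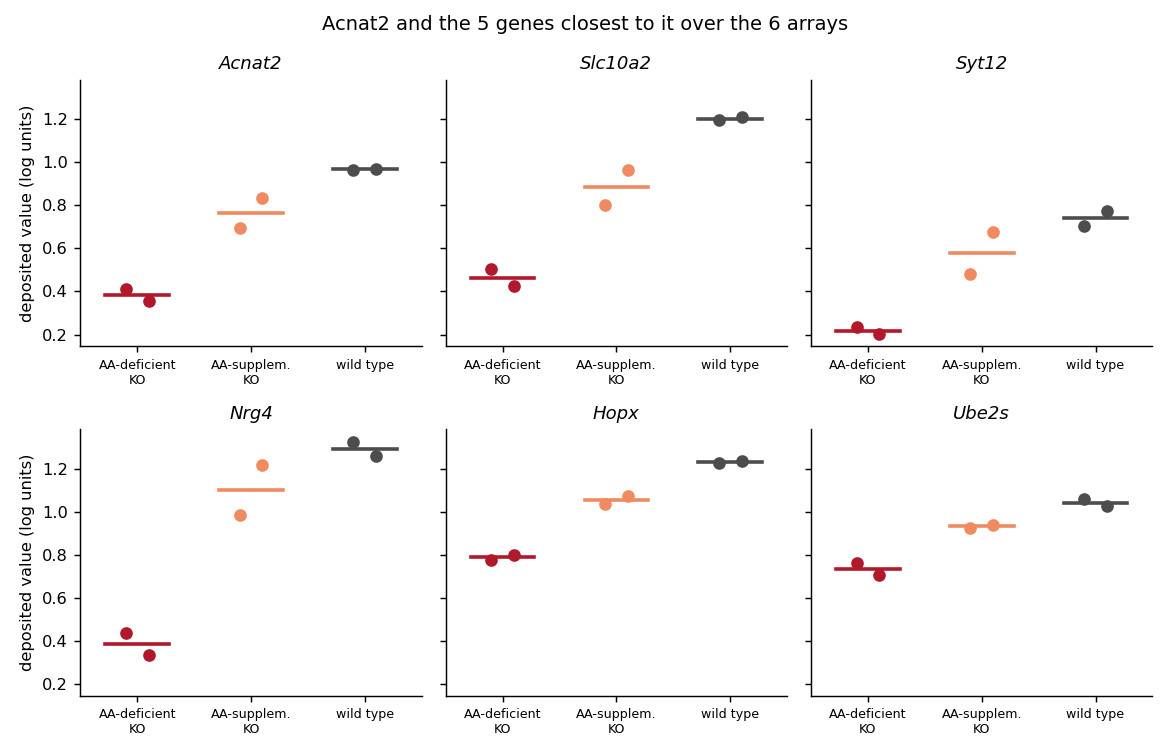
Acnat2 and the 5 genes with the highest Pearson coefficient to it over the 6 arrays. Points are arrays, lines group means, the x axis gives the groups and the y axis the deposited value in log units. In each panel the AA-deficient knockouts are lowest and wild type highest, with Slc10a2 at 0.46, 0.88 and 1.20. This order largely follows from choosing the genes by that coefficient.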

How the data were processed

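Liver RNA of 6 samples was extracted with ISOGEN and labelled with an Affymetrix WT Terminal Labeling kit, per the labels' protocols. The authors deposited 1 table of log values per probe set, read here as log10 because the span from -0.58 to 2.51 is 1213-fold on that base and 8.48-fold on log2. Not given in the sources used here are the software, background correction, normalisation and log base. Of 34760 probe sets, 3995 held no value. Of 30765 with a value, 21161 carried 1 gene symbol in the platform annotation, 1150 several and 8454 none. Each gene was taken from its probe set of highest mean, which gave 19550 genes. The 14662 whose mean reached the 25th percentile entered 1 limma model of all 6 arrays (version 3.58.1 under R 4.3.3, lmFit, contrasts.fit and eBayes), which left 3 residual and 4.89 prior degrees of freedom. Two-sided p-values were adjusted over all genes tested by the Benjamini-Hochberg method (threshold 0.05). The fit was tested on simulated data, with independent noise drawn from the spread that limma itself had estimated. Such data cannot check for technical replicates or for an array that deviates from the others.

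The members and lists were chosen with earlier results of these data known. Named were all members, the other thioesterases, from each list the genes that passed (up to 4 of smallest p) or the 1 of smallest p, and the 5 genes closest to Acnat2 whose SD over the arrays reached a fixed share of that of Acnat2. Predicted genes and clones were not named. Baat was added as the neighbour of Acnat1. Marker sums add 10 to the power of each value. Alternatives were 2 filters, 2 forms of eBayes, the 4 arrays compared alone, 3 normalisations, the mean of all probe sets, a replicate block and leaving out each array. The number of arrays limits the precision.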

Additional observations from a re-analysis of the deposited data

How the results depend on the processing

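There were 16 other settings, 10 that change the processing and 6 that leave out an array. Over them 364 of 397 member tests kept direction and side of the threshold. All 32 Acnat2 values described stayed within its replicate spread, which is no support. Leaving out 1 of 2 arrays cannot move a mean beyond that spread. The filters, forms of eBayes, 4 arrays alone, probe set mean and block leave the Acnat2 difference unchanged. Only the 3 normalisations could have moved it further. Counts over all genes moved most. AA-deficient against AA-supplemented knockouts gave 30 calls, and 0 with no filter, 51 with the 50th percentile filter, 154 with a trend, 177 with a trend and robust fit, 0 with only the 4 arrays compared, 14 (1 higher, 13 lower) with quantile normalisation, 57 (14 higher, 43 lower) with median centring and 13 (1 higher, 12 lower) with cyclic loess, against 6 higher and 24 lower. AA-deficient knockouts against wild type gave 679 (452 higher, 227 lower), and in the same order 173, 1057, 1271, 1312 and 1031, with 533 under median centring (304 higher, 229 lower). AA-supplemented knockouts against wild type gave 1, and 94 with a trend, 116 with a trend and robust fit and 8 with median centring (6 higher, 2 lower). With 1 array left out these 3 counts ran from 0 to 46, 1 to 1031 and 1 to 7, and those of members from 0 to 1, 0 to 1 and 0 to 0. In AA-deficient knockouts against wild type 1 member, Acot2, passed with the 50th percentile filter, a trend, a trend and robust fit, and only the 4 arrays compared. The cause was not tested.

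Same-numbered arrays correlated at -0.37, 0.36 and -0.28 in their deviations from group means (AA-deficient with AA-supplemented, AA-deficient with wild type, AA-supplemented with wild type), so the numbers were not taken as pairs. A replicate block gave 4, 163 and 3 calls over all genes and 0 members. In AA-deficient knockouts against wild type it left 0 synthetase calls and 0 of peroxisomal beta-oxidation. It left 1 call in the list of PPAR alpha, Pparg and partners, and 2 among the PPAR alpha targets.

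The sign turned only for members that did not pass. Against wild type in AA-deficient knockouts, Acot7 was -0.0096 with quantile normalisation and -0.012 with median centring, and Acot12 was -0.0058, -0.0071 and, with cyclic loess, -0.0066. Acnat1 in AA-supplemented knockouts against wild type was -0.014, -0.0028 and -0.0085 under the same 3. With 1 array left out, AA-deficient minus AA-supplemented knockouts ran from -0.041 to 0.055 for Acot7 and -0.0035 to 0.066 for Acot12. AA-deficient knockouts minus wild type ran from -0.080 to 0.033 for Acnat1, -0.055 to 0.16 for Acot3, -0.038 to 0.039 for Acot7 and -0.0056 to 0.016 for Acot12. AA-supplemented knockouts minus wild type ran from -0.045 to 0.067 for Acnat1, -0.017 to 0.11 for Acot2, -0.055 to 0.041 for Acot7, -0.034 to 0.032 for Acot8 and -0.061 to 0.0085 for Acot12. A lone array was assumed to vary like the other groups, and signal over background was not available.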
